A study of Arabidopsis thaliana with 16 samples.

Results

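The genes described here are those whose signal was lower with brassinolide when no hydrogen peroxide was present. Brassinolide (BL, given as epi-brassinolide) is a plant steroid hormone that promotes growth, and hydrogen peroxide (H2O2) is a reactive oxygen species that causes oxidative stress and also acts as a signal. Each gene is read by a probe set, a group of short probes on an Affymetrix array, and its signal is given in log2 units. A probe set was taken if the highest of the 3 arrays with 1 µM BL and 0 mM H2O2 lay at least 0.3 log2 units (1.23-fold) below the lowest of the 3 solvent arrays at 0 mM, and if 2 or more of the 16 arrays gave a level of 5 or more. Symbols starting with UGT were left out, by symbol alone, so that a glycosyltransferase under another symbol, such as GT72B1, remained. The rule took 186 of the 13140 probe sets with enough signal, of which 3 had UGT symbols (UGT85A2, UGT73B5 and UGT85A5), leaving 183 members of 22746 probe sets on the array. The platform annotation gives 1 gene to 91 of them, several genes to 4 and none to 88.

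All seedlings were Arabidopsis thaliana of ecotype Col and genotype Wt, harvested whole at 12 days after growth in liquid culture. They were pretreated in darkness for 30 min with H2O2 at 0, 1, 5, 25, 50 or 100 mM and then received 1 µM BL, or the same amount of ethanol as solvent, for 1 h with the H2O2 still in the medium. BL and solvent at 0 mM have 3 arrays each, and each of the 5 doses above 0 mM has 1 BL array and 1 solvent array, which gives 12 groups on 16 arrays. The labels number the arrays but do not say whether they came from separate cultures, so all p-values reflect differences among individual arrays, which may be technical. In whole seedlings, fewer cells of a type and less RNA per cell cannot be told apart.

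Brassinosteroids bind the receptor kinase BRI1 at the cell surface, which works with the co-receptor BAK1. The signal inactivates the kinase BIN2, and the transcription factors BZR1 and BES1 then raise growth genes and lower others. BAK1 also partners immune receptors such as FLS2 and EFR, and growth and defence programmes are known to be traded against each other in seedlings. H2O2 is produced in that same immune signalling and is met by antioxidant enzymes, detoxifying transferases and stress transcription factors.

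The array medians over all probe sets lay between 5.52 and 5.72. Solvent array 3 at 0 mM stood apart, with a correlation over the probe sets kept of 0.816 to 0.907 to the other arrays at 0 mM, whereas the 3 BL arrays at 0 mM correlated at 0.987 to 0.990 with each other. Of 11 genes listed as typical of root, 8 had a probe set of their own. Their mean log2 signal was 7.71, 7.31 and 7.37 on BL arrays at 0 mM, against 7.03, 7.56 and 4.97 on solvent arrays, and it lay between 4.20 and 5.54 on all 10 arrays with H2O2. Solvent array 3 thus fell within the range of the H2O2 arrays for the mean of this list, but the genes were not alike. PYK10 measured 12.00 on solvent array 3, below its 13.04 to 14.13 on the arrays with H2O2. From 1 to 100 mM it rose by 0.94 ± 0.09 (limma, adjusted p = 4.6e-05). Of the 6 root genes tested, 1 rose with dose and 2 fell. The part of root tissue in the results below was not tested. Of 10 leaf photosynthetic genes only RCA, which activates Rubisco, had its own probe set, at 13.7 on solvent array 3 and 14.4 to 14.8 on the other 15 arrays. The 3 guard cell genes of 9 that could be read averaged between 2.69 and 4.25 on all arrays, and only 1 of them, FMA, had enough signal to be tested. FMA measured 6.74 to 7.48 at 0 mM and 3.59 to 5.97 with H2O2. Its fitted log2 change from 1 to 100 mM was -1.38 ± 0.36 (limma, adjusted p = 0.0124). None of these marker genes was a member.

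Without H2O2, the median member had a log2 signal of 6.29, 6.39 and 6.29 on the BL arrays, against 7.48, 6.99 and 8.36 on the solvent arrays. The BL arrays were close to each other, while the solvent arrays spread widely, with solvent array 3 the highest for 154 members and solvent array 2 the lowest of the solvent arrays for 138. The mean difference between BL and solvent ranged from -3.76 to -0.48 over the members, with a median of -1.12. The members were chosen by these values, which are therefore a description only. The rule passed 1.42% of the probe sets kept, and its mirror image, BL at least 0.3 above solvent, passed 2.41%. Which members pass depends on single arrays. Without solvent array 2 the rule would take 1174 probe sets, without BL array 2 it would take 480, and without solvent array 3 it would take 251. Just inside the limit lay OASA2 (cysteine synthesis), 253062_at and UBC16 (a ubiquitin-conjugating enzyme), with gaps of 0.30288, 0.30338 and 0.30362. Just outside lay ACA.l, 266360_at and AT3G04480, with gaps of 0.29947, 0.29944 and 0.29944.

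**Figure D1:**
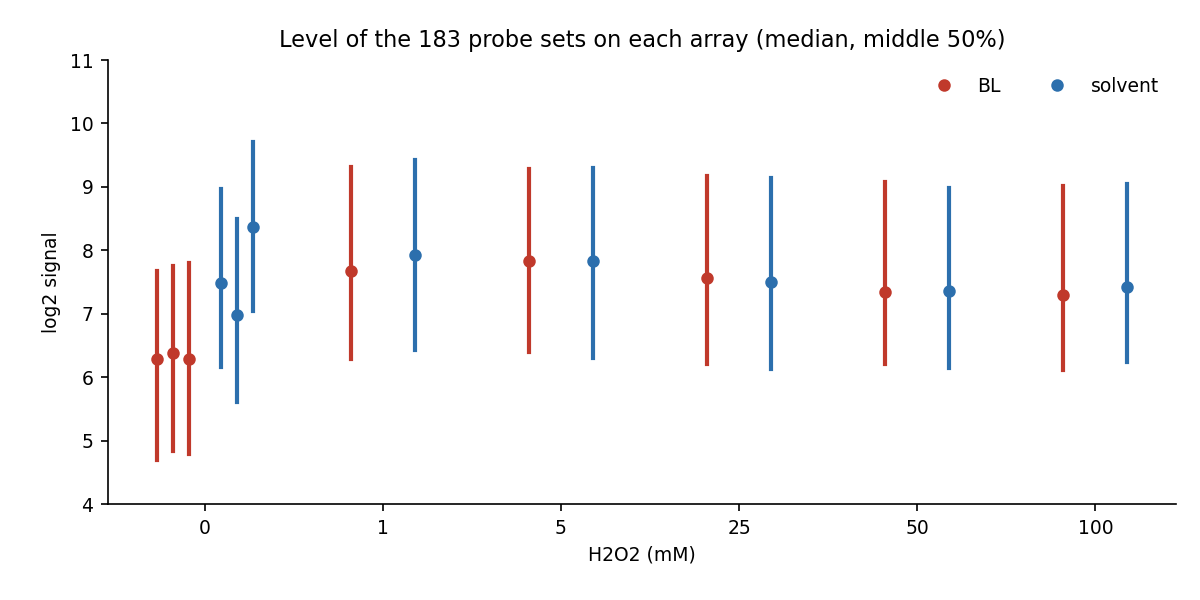
Median log2 signal of the 183 members on each of the 16 arrays (points) with the middle 50% of members (bars), BL in red and solvent in blue, by H2O2 dose. The 3 BL arrays at 0 mM have medians of 6.29 to 6.39, and every other array has a median between 6.99 and 8.36.

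The first comparison asked whether BL also lowered the members when H2O2 was present, on 10 arrays that the 0.3 gap did not use. The differences centred near 0. The median difference between BL and solvent over the members was -0.15, 0.03, 0.01, 0.04 and -0.11 log2 units at 1, 5, 25, 50 and 100 mM, against 0.00, 0.04, -0.02, -0.01 and -0.04 over all probe sets kept. Fitted over the 5 doses with dose as a block, the BL effect had a median of -0.03 over the members and ranged from -0.70 to 0.45. In limma 0 members passed an adjusted p of 0.05, and among all probe sets 0% did, with a smallest adjusted p of 0.807. At an unadjusted p under 0.05, 15 members (8.2%) were lower with BL, against 3.26% of all probe sets, and 11 members (6.01%) were higher, against 2.72%. The count also stayed at 0 in every alternative tried on the arrays with H2O2.

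The intervals show how much of a BL effect averaged over the 5 doses could have been missed. They do not limit the effect at a single dose. The 95% confidence interval of the fitted BL effect had a median half-width of 0.23. For 107 members it lay wholly above -0.3, so an average difference of -0.3 or lower fell outside it. For the other 76 members it reached -0.3 or lower, and for 0 members it lay wholly below. The largest fitted lowering among members with 1 gene belonged to AT5G65300, at -0.66 (-1.31 to -0.02), followed by AT1G70990 at -0.54 (-0.91 to -0.18) and AT1G63720 at -0.50 (-0.98 to -0.02). AT5G65300 and AT1G70990 were chosen after their values were seen. The BL array was below the solvent array at all 5 doses for 7 members (3.83%), against 4.3% of all probe sets, and above it at all 5 for 9 (4.92%), against 2.98%.

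**Figure D2:**
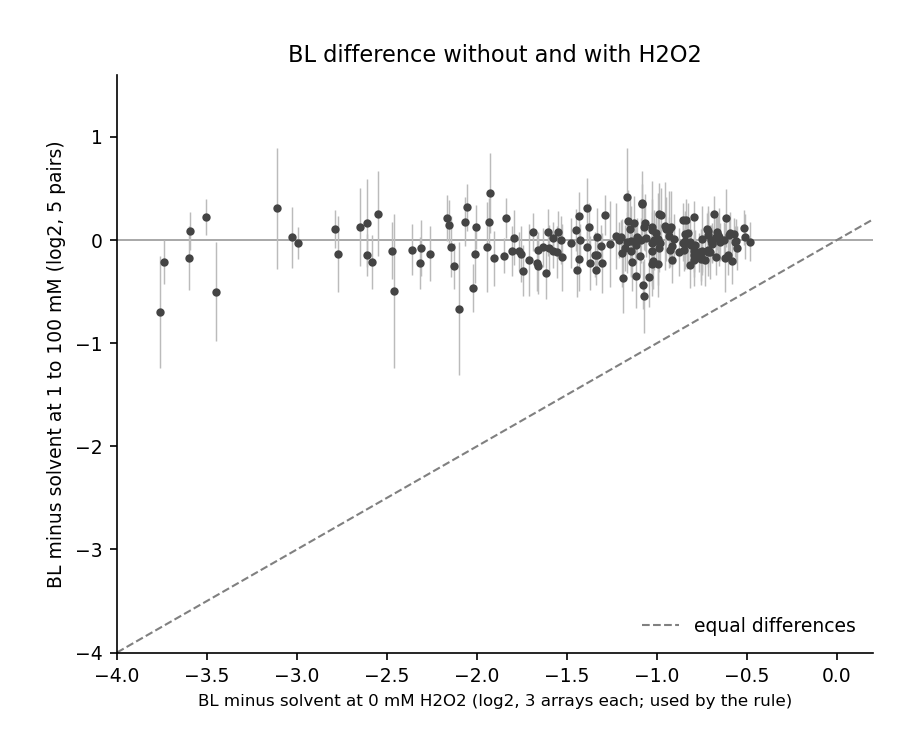
Each point is 1 of the 183 members: BL minus solvent at 0 mM (horizontal, log2, means of 3 arrays each, used by the rule) against the fitted BL minus solvent difference at 1 to 100 mM (vertical, log2, 5 pairs of arrays, bars are 95% intervals). The vertical values lie between -0.70 and 0.45, while the horizontal ones extend to -3.76.

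The doses were not alike. At 1 mM, the BL array lay at least 0.3 below the solvent array for 69 members (37.7%), against 10.1% of all probe sets, and at least 0.3 above it for 14 members (7.65%), against 10.4%. At 100 mM the BL array was lower by that much for 46 members (25.1%), against 15.6% of all, and higher for 23 (12.6%), against 12.3%. The counts at the doses between were smaller on the lower side. The BL array was at least 0.3 below solvent for 26 members (14.2%, against 8.42% of all) at 5 mM, 14 (7.65%, against 9.17%) at 25 mM and 9 (4.92%, against 6.84%) at 50 mM. It was at least 0.3 above solvent for 31 members (16.9%, against 15.9%) at 5 mM, 32 (17.5%, against 7.66%) at 25 mM and 18 (9.84%, against 6.63%) at 50 mM. Each dose has 1 array of each kind, so these counts have no replicate check. The test of whether the dose slope differed with BL called 0 members and 0% of all probe sets in limma, with a smallest adjusted p of 1.00. In simulated data this test called 20 of 100 slope differences of 1 log2 unit and 76 of 100 of 2 log2 units. The count of 0 therefore does not show that the slopes were equal. At an unadjusted p under 0.05 the slope was lower with BL for 4 members (2.19%), against 2.31% of all probe sets, and higher for 7 (3.83%), against 1.06%.

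**Figure D3:**
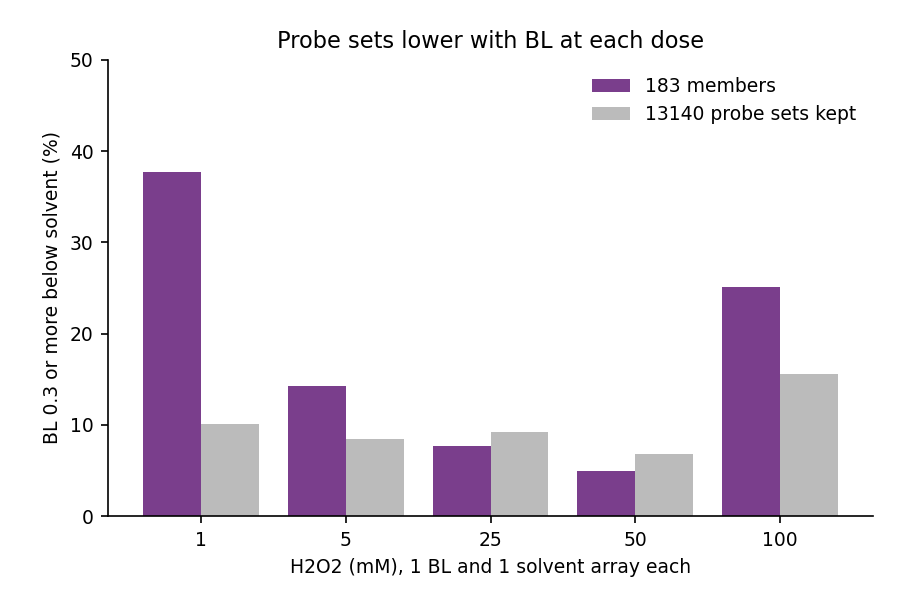
Percentage of probe sets whose BL array lay at least 0.3 log2 units below the solvent array at each H2O2 dose, for the 183 members (purple) and the 13140 probe sets kept (grey), with 1 array of each kind per dose. The members stand at 37.7% at 1 mM and 4.92% at 50 mM, against 10.1% and 6.84% of all probe sets.

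The levels with H2O2 can also be set beside those at 0 mM. Because the levels at 0 mM chose the members, these are descriptions and carry no test. With BL, the mean of the 5 H2O2 arrays exceeded the mean of the 3 arrays at 0 mM by a median of 1.23 log2 units over the members (-0.09 over all probe sets). With solvent, the same median was 0.02 (-0.03 over all probe sets). All 5 BL arrays with H2O2 lay above all 3 BL arrays at 0 mM for 147 members (80.3%), against 17% of all probe sets, and below them for 4 (2.19%), against 26.1%. The solvent arrays with H2O2 lay wholly above those at 0 mM for 19 members (10.4%), near the 9.38% of all probe sets. They lay wholly below for 20 (10.9%), near the 10.5% of all. Leaving out solvent array 3 gave 64 members wholly above (35%, against 16.6% of all probe sets), and leaving out solvent array 2 gave 36 wholly below (19.7%, against 17%). The BL array was at or above the lowest solvent array at 0 mM for 126, 142, 140, 138 and 136 members at 1, 5, 25, 50 and 100 mM. These are 68.9%, 77.6%, 76.5%, 75.4% and 74.3% of the members, near the 73.2%, 72.2%, 73.4%, 75.4% and 78% of all probe sets. At all 5 doses this held for 98 members (53.6%), against 55.2% of all probe sets.

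For 9 members (4.92%) all 10 arrays with H2O2 lay above all 6 arrays at 0 mM, near the 4.21% of all probe sets. For 2 members (1.09%) they lay below, against 5.32%. The genes named next are examples and not a trait particular to the members. The highest of the 9 by difference of means was GT72B1, a glycosyltransferase that attaches glucose to foreign compounds such as chlorophenols. It measured 6.65, 6.27 and 6.32 on BL arrays and 7.15, 7.18 and 6.99 on solvent arrays at 0 mM. At 1, 5, 25, 50 and 100 mM it measured 11.53, 11.76, 10.93, 10.57 and 10.10 with BL and 11.86, 11.67, 10.87, 10.47 and 10.15 with solvent. The 10 arrays with H2O2 thus spanned 10.10 to 11.86, whether or not BL was given, and the 6 arrays at 0 mM spanned 6.27 to 7.18. AT3G23550, a MATE-type efflux transporter, measured 7.71, 8.31 and 8.57 with BL and 10.003, 9.33 and 9.84 with solvent at 0 mM. Over the doses it had 10.16, 10.95, 11.27, 10.97 and 10.83 with BL and 10.91, 11.08, 10.94, 10.97 and 11.14 with solvent. Its H2O2 arrays differed little between doses except for the lower BL array at 1 mM. The others named by the rule were AT1G02660 (a plastid lipase), AT3G59480 (a fructokinase-type sugar kinase), AT3G04010 (a glycosyl hydrolase) and AT1G30820 (CTP synthase). AT1G02660 spanned 9.39 to 9.96 with H2O2, against 6.42 to 9.12 at 0 mM. The 2 members below were AT1G63530 and AT3G52870, a calmodulin-binding protein. AT1G63530 had 5.79, 5.80 and 5.55 with BL and 6.66, 6.13 and 7.61 with solvent at 0 mM, and 4.99, 5.12, 4.47, 4.99 and 4.25 with BL and 4.48, 4.68, 4.11, 4.59 and 4.21 with solvent over the doses.

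The second comparison asked how the members moved over the doses from 1 to 100 mM, again on the 10 arrays that the gap did not use. The slope over log2(1 + dose), fitted with BL as an additive term, is given as the fitted log2 change from 1 to 100 mM with its standard error. The fit treats the BL and solvent arrays of a dose as independent, so slope p-values here and below may be too small. In limma the signal fell with dose for 76 members (41.5%), against 16.2% of all probe sets, and rose for 35 (19.1%), against 22.2%, at an adjusted p under 0.05. The median slope was -0.23 over the members (from -4.85 to 2.83) and 0.06 over all probe sets. The share of members that fell was thus above the share of all probe sets, and the share that rose was near it. The count of members that rose depended on the BL array at 1 mM, without which it was 22. The share of all probe sets that rose without that array is not given here. The count of rising members also differed between sets chosen without 1 array at 0 mM, but these sets differ in size as well. Without solvent array 3 the rule took 251, of which 84 fell and 60 rose with a median slope of -0.11, and without BL array 2 it took 480, of which 123 fell and 156 rose. Without solvent array 2 it took 1174, of which 537 fell and 135 rose. With no level filter, 7 of the 25 called slopes among genes named by the rule lost the call in limma (AT1G63720, EFR, AT2G27500, AT2G03750, AT1G54890, AT5G38850 and AT1G66890, adjusted p between 0.0577 and 0.0989). Of the 183 members, 176 reached the level minimum on the H2O2 arrays alone. The 3′ minus 5′ signal of the array's control probe sets, a measure of RNA quality and labelling, moved with dose: it was 2.66, 2.73, 2.98, 2.93 and 3.24 at 1, 5, 25, 50 and 100 mM (means of 2 arrays), and its part in the slopes was not tested.

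**Figure D4:**
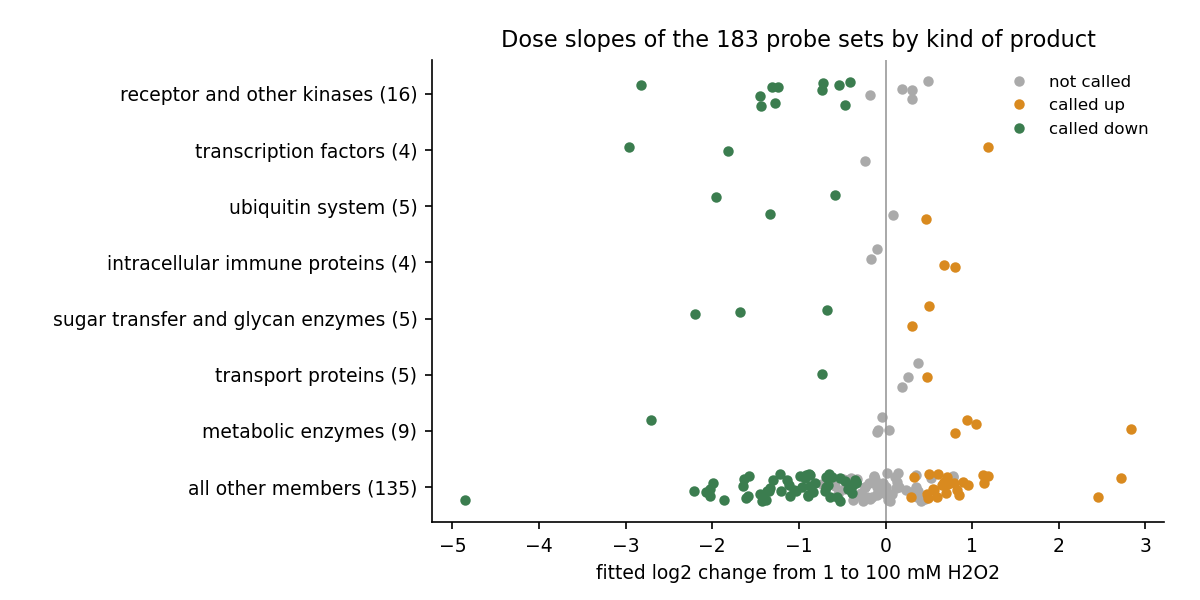
Fitted log2 change from 1 to 100 mM H2O2 (horizontal) for each of the 183 members, by kind of gene product, with the number of members of each kind in brackets. Green points fell and orange points rose at an adjusted p under 0.05 in limma, and grey points were not called. Of 16 kinases, 11 fell and 0 rose, beside 41.5% and 19.1% of all members.

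The kinds of product used below were assigned to 48 members after the values had been seen, and serve to order the description. Receptor and other protein kinases formed the biggest kind, with 16 members. Such kinases sit mostly in the plasma membrane and pass on signals from peptides, cell wall fragments or microbes. Over the doses 11 of them fell, 0 rose and 5 were not called, with a median slope of -0.63. The counts for this and the other kinds stand beside 41.5% of members and 16.2% of all probe sets that fell, and 19.1% of members and 22.2% of all probe sets that rose. As the kinds were formed with the values known, the counts are a description only. The mean difference between BL and solvent at 0 mM had a median of -1.44 over them, and 0 were called for BL under H2O2.

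EFR is the receptor kinase that recognises the bacterial elongation factor EF-Tu. At 0 mM it measured 3.99, 3.42 and 3.67 with BL, against 5.70, 4.79 and 6.40 with solvent. Over the 5 doses it measured 5.26, 3.91, 3.61, 3.58 and 3.82 with BL, against 5.06, 3.42, 3.70, 3.60 and 3.51 with solvent. Its signal was high on solvent arrays at 0 mM and on both 1 mM arrays, and low on every other array, with a slope of -1.27 ± 0.35 (limma, adjusted p = 0.0162). EFR reached the level minimum of 5 only on solvent arrays 1 and 3 at 0 mM and on both 1 mM arrays. It thus passed the filter only through arrays where it was high, among those with H2O2 only at the lowest dose, which favours a fall. Leaving out the BL array at 1 mM ended that call (adjusted p = 0.0962), as did leaving out the solvent array at that dose (0.0985). AT5G59680, a leucine-rich repeat receptor kinase, measured 4.01, 3.99 and 3.95 with BL and 7.80, 4.93 and 9.74 with solvent at 0 mM. It gave 3.96, 4.02, 4.05, 3.99 and 4.33 with BL and 3.86, 3.68, 3.95, 3.80 and 3.94 with solvent under H2O2. The 3 solvent arrays at 0 mM lay above every other array, and they differed among themselves by more than 4 log2 units. Their place above the BL arrays at 0 mM is the rule itself. Only solvent arrays 1 and 3 at 0 mM reached the level minimum of 5, so AT5G59680 passed the filter only through the group where it was high.

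AT1G18390, an LRK10-like receptor kinase, had the steepest fall among the kinases. It measured 5.50, 5.37 and 5.22 with BL and 7.11, 5.84 and 7.58 with solvent at 0 mM, and 7.80, 6.38, 5.19, 5.25 and 4.46 with BL and 7.43, 6.31, 5.37, 5.38 and 4.74 with solvent over 1, 5, 25, 50 and 100 mM. BL and solvent arrays fell side by side, with a slope of -2.82 ± 0.23 (limma, adjusted p = 1e-05). The neighbouring S-locus lectin kinase genes AT1G61360 and AT1G61370 were both members, 1 of 2 pairs of adjacent genes on the list. AT1G61360 measured 6.68, 6.44 and 6.41 with BL, against 9.32, 7.18 and 10.99 with solvent, at 0 mM. Its slope was -1.44 ± 0.24 and that of AT1G61370 was -0.53 ± 0.19 (limma, adjusted p = 0.0012 and 0.0478). The other adjacent pair was AT1G03730 and the kinase AT1G03740, whose slope was -1.43 ± 0.12. PSY1R, the receptor kinase named for the growth peptide PSY1, measured 6.84, 6.23 and 6.91 with BL and 7.47, 7.32 and 7.78 with solvent at 0 mM. Under H2O2 it stood at 6.76, 6.27, 6.39, 6.72 and 6.38 with BL and 6.94, 6.24, 6.42, 6.57 and 6.51 with solvent, near its levels with BL alone, and its slope was not called. ATSIK and AT1G17230, the remaining kinases among the widest gaps at 0 mM, had slopes of -0.74 ± 0.15 (limma, adjusted p = 0.00349) and 0.31 ± 0.17 (not called, adjusted p = 0.184).

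Of the 4 transcription factors, 2 fell over the doses, 1 rose and 1 was not called. STZ, also known as ZAT10, is a zinc finger repressor induced by salt, cold and oxidative stress. It measured 6.64, 6.43 and 6.67 with BL, against 9.04, 7.38 and 11.07 with solvent, at 0 mM. From 1 to 100 mM it measured 11.57, 11.90, 10.96, 10.43 and 10.12 with BL, against 12.22, 11.94, 10.91, 10.49 and 10.51 with solvent. All 10 arrays with H2O2 lay above the BL arrays at 0 mM, and the signal fell with dose, with a slope of -1.82 ± 0.21 (limma, adjusted p = 0.00011). AT2G33710, a factor of the ERF/AP2 family, had the steepest fall of any member with 1 gene. It measured 4.17, 4.58 and 4.68 with BL and 6.03, 5.36 and 8.08 with solvent at 0 mM, and 8.58, 8.12, 6.54, 6.52 and 5.99 with BL and 8.84, 8.41, 6.95, 6.64 and 5.60 with solvent over the doses. At 100 mM both arrays lay within the range of its solvent arrays at 0 mM, with a slope of -2.96 ± 0.20 (limma, adjusted p = 1e-05). AT1G36060, of the same family, rose instead, with a slope of 1.19 ± 0.25 (limma, adjusted p = 0.004). It measured 6.64, 7.94, 7.91, 8.25 and 8.29 with BL and 7.35, 7.76, 8.52, 8.08 and 8.27 with solvent over the doses.

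**Figure D5:**
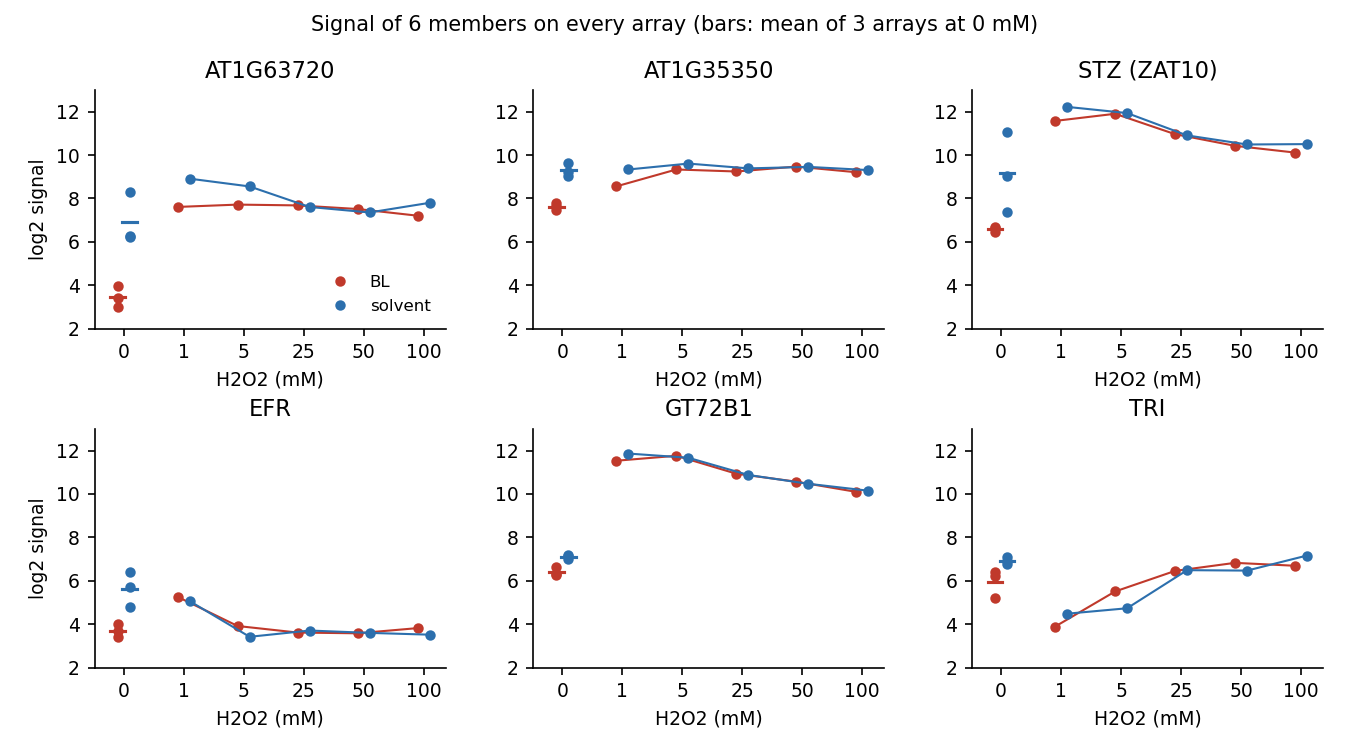
Log2 signal of 6 members on all 16 arrays by H2O2 dose, BL in red and solvent in blue, with short bars for the mean of 3 arrays at 0 mM. STZ, EFR and GT72B1 fall from 1 to 100 mM, TRI rises, and AT1G63720 and AT1G35350 have their widest BL difference with H2O2 at 1 mM.

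The ubiquitin system, which marks proteins for degradation, had 5 members, of which 3 fell, 1 rose and 1 was not called. PUB24 is a U-box ubiquitin ligase of a family that dampens immune responses. Without H2O2 it measured 4.001, 3.99 and 3.82 with BL, against 6.09, 4.60 and 8.20 with solvent. With H2O2 it measured 8.97, 9.23, 8.19, 8.03 and 7.10 with BL and 9.27, 9.32, 8.23, 7.71 and 7.45 with solvent at the 5 doses. The solvent arrays at 0 mM lay above the BL arrays, the highest of them among the H2O2 arrays, and the slope was -1.96 ± 0.24 (limma, adjusted p = 0.00018). UBC16 was not called, with a slope of 0.09 ± 0.13.

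Intracellular immune proteins had 4 members, of which 2 rose and 0 fell. SAG101 works with EDS1 downstream of intracellular immune receptors. Its log2 signal was 5.63, 5.99 and 5.79 with BL, against 7.13, 6.29 and 7.27 with solvent, at 0 mM. At the 5 doses it was 6.67, 7.07, 6.97, 7.34 and 7.40 with BL and 6.54, 7.19, 7.17, 7.01 and 7.54 with solvent. The arrays with H2O2 overlapped the solvent arrays at 0 mM and lay above the BL arrays, and the slope was 0.68 ± 0.16 (limma, adjusted p = 0.00765). The call was lost when 25 to 100 mM was set against 1 and 5 mM (adjusted p = 0.104). AT5G38850, a TIR-type immune receptor gene, rose by 0.80 ± 0.25 (limma, adjusted p = 0.029). Leaving out the BL array at 1 mM ended that call (adjusted p = 0.167), as did leaving out the solvent array at 5 or at 50 mM (adjusted p = 0.0516 each).

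Enzymes that transfer sugars or act on glycans had 5 members, 3 of which fell and 2 of which rose. GT72B1 fell from its high level at low doses, with a slope of -1.68 ± 0.18 (limma, adjusted p = 6e-05). AT3G04010, a family 17 glycosyl hydrolase, measured 5.56, 4.89 and 5.16 with BL and 7.05, 6.14 and 7.15 with solvent at 0 mM. Over the doses it had 10.04, 8.83, 8.18, 7.95 and 7.67 with BL and 10.001, 8.77, 8.17, 7.86 and 7.80 with solvent. It was highest on both 1 mM arrays and fell with dose, with a slope of -2.20 ± 0.20 (limma, adjusted p = 3e-05). AT2G27500, of the same hydrolase family, had a slope of -0.68 ± 0.19 (limma, adjusted p = 0.0166), a call that ended when the solvent array at 1 mM was left out (adjusted p = 0.0537).

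Transport proteins had 5 members, of which 1 rose, 1 fell and 3 were not called. AT1G35350 belongs to the PHO1 family, whose founding member exports phosphate. At 0 mM it measured 7.64, 7.45 and 7.80 with BL, against 9.23, 9.03 and 9.61 with solvent, and both groups were tight. Over the doses it measured 8.56, 9.34, 9.24, 9.47 and 9.21 with BL, against 9.34, 9.61, 9.39, 9.46 and 9.31 with solvent. The BL array at 1 mM differed from its solvent array by -0.78, and at the other doses the difference lay between -0.27 and 0.01. The fitted BL effect was -0.26 (-0.52 to 0.01), and the slope was not called.

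Metabolic enzymes had 9 members, of which 4 rose, 1 fell and 4 were not called. TRI, of the tropinone reductase type, had the steepest rise of all members. At 0 mM it measured 6.22, 5.18 and 6.40 with BL and 7.10, 6.76 and 6.91 with solvent, and at 1, 5, 25, 50 and 100 mM 3.89, 5.50, 6.45, 6.82 and 6.69 with BL and 4.48, 4.73, 6.49, 6.47 and 7.16 with solvent. Its signal at 1 mM was below every array at 0 mM and from 25 mM on lay between 6.45 and 7.16, with a slope of 2.83 ± 0.27 (limma, adjusted p = 4e-05). WES1, also known as GH3.5, joins auxin to amino acids. It measured 8.16, 8.41 and 8.12 with BL, against 9.30, 8.81 and 9.56 with solvent, at 0 mM. Over the doses it measured 8.38, 9.31, 9.21, 9.79 and 9.49 with BL and 8.49, 9.23, 9.71, 9.69 and 9.44 with solvent. Both 1 mM arrays were near the level of the BL arrays at 0 mM, and the signal rose with dose by 1.05 ± 0.23 (limma, adjusted p = 0.00514). AT2G41380, a methyltransferase-type protein, was the 1 that fell, with a slope of -2.70 ± 0.16. AT2G03750, a sulfotransferase, rose by 0.94 ± 0.25 (limma, adjusted p = 0.0146). Leaving out either array at 1 mM ended its call (adjusted p = 0.0869 for BL and 0.0731 for solvent).

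The remaining 135 members were given no role. AT1G63720 had the widest gap at 0 mM of all members, with 3.42, 3.01 and 3.98 on BL arrays and 6.27, 6.22 and 8.29 on solvent arrays. Under H2O2 it measured 7.61, 7.72, 7.68, 7.51 and 7.21 with BL, against 8.91, 8.55, 7.61, 7.35 and 7.80 with solvent. The BL array lay below the solvent array at 1, 5 and 100 mM and slightly above it at 25 and 50 mM. Its slope of -0.90 ± 0.26 (limma, adjusted p = 0.0195) lost its call when the solvent array at 1 mM was left out (adjusted p = 0.116). AT4G01870, a TolB-related protein, measured 8.93, 9.30 and 9.21 with BL and 11.24, 10.30 and 12.83 with solvent at 0 mM, and 14.43, 13.77, 13.11, 12.90 and 12.26 with BL and 14.78, 13.58, 13.14, 12.66 and 12.70 with solvent over the doses. It stood among the strong falls, with a slope of -2.03 ± 0.17 (limma, adjusted p = 2e-05). AT5G58680 and AT3G03440, both with ARM repeats, fell with slopes of -2.07 ± 0.24 and -2.03 ± 0.12. Both reached the level minimum of 5 only on arrays at 1 or 5 mM. They thus passed the filter only through the doses where they were highest, which favoured a fall in advance. Among the widest gaps, AT3G60200 fell (-1.12 ± 0.18, limma adjusted p = 0.00103), while AT3G57630 was not called (-0.02 ± 0.21).

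The other rises that the rule named were smaller. AT1G80810 rose by 1.14 ± 0.21 and AT1G30820 by 0.81 ± 0.12. AT1G54890 and AT1G66890 rose by 0.90 ± 0.28 and 0.65 ± 0.20, and neither call held when 1 of 3 arrays was left out: BL at 1 mM (adjusted p = 0.133 and 0.136), solvent at 1 mM (0.127 and 0.0567) or solvent at 100 mM (0.0870 and 0.0538). An unnamed probe set led the falls. The steepest fall of all belonged to 253999_at, at -4.85 ± 0.33. At 0 mM it measured 5.74, 5.79 and 5.50 with BL and 8.75, 6.36 and 11.26 with solvent, so its solvent arrays spread over more than 4 log2 units. Over the doses it measured 9.84, 8.84, 6.42, 6.48 and 6.003 with BL and 10.29, 8.74, 6.74, 5.61 and 4.67 with solvent. The other fall named among unnamed probe sets was that of 251061_at (-2.21 ± 0.18), less steep than those of AT2G33710, AT1G18390 and AT2G41380. The steepest rises among unnamed probe sets, both smaller than that of TRI, were 256788_at (2.72 ± 0.48) and 254644_at (2.45 ± 0.27).

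Genes of the hormone pathways were taken from lists compiled for this description, of which the annotation let only a part be read. Of 14 brassinosteroid synthesis genes 0 had a probe set of their own, and of 22 signalling genes 2 had one, of which 1 was tested. It was not a member and had no called slope. Of 21 brassinosteroid-responsive targets 1 was tested, which rose with dose and was not a member. Over all probe sets 22.2% rose and 16.2% fell with dose, beside which the counts of these short lists are only a description. Among the auxin genes 4 were tested, of which 2 rose, 1 fell and 1, WES1, was a member. Of 4 gibberellin genes 1 rose and 1 fell, and of 35 cell wall genes 11 rose and 1 fell, with 0 members in either list. Of 7 touch and calcium genes 5 fell with dose and 0 were members. For BL under H2O2, limma called 0 genes of these lists, as it did over the whole array.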

How the data were processed

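Arrays were labelled with biotin by a 3′ one-cycle protocol, per the labels' protocols. The deposited values are log2 signals. The authors computed them with GCRMA, per the submitters' processing notes, and its version and settings are not given in the sources used here. GCRMA adjusts background from each probe's bases, scales the arrays to each other and combines the probes of a set, which compresses differences near the lowest value of 2.12. The values were used as deposited, and 0 columns were left unused. Of 22810 entries, 64 control probe sets were removed, and 13140 that reached a level of 5 on 2 or more of 16 arrays were kept.

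The members and gene lists were chosen with earlier results of these data known. The lists hold genes compiled for an earlier description of the series and extended here. The differences that chose the members, and those against 0 mM, were described and not tested. Tests used limma 3.58.1 (lmFit, eBayes) in R 4.3.3 on the 10 arrays with H2O2, over all 13140 probe sets, with Benjamini-Hochberg adjustment and a threshold of 0.05. The BL effect was fitted with dose as a block (4 residual degrees of freedom), the slope over log2(1 + dose) with BL as an additive term (7), and the slope difference as their interaction (6). The slope fit did not block by dose, although BL and solvent arrays of a dose correlated at 0.987 to 0.995. A departure of a dose from the line thus counts once for each array, and the slope p-values may be too small. The fits were tested on simulated data. Arrays have no read depth, and their number limits the precision.

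Members named in the text were those with 1 gene and the 10 widest gaps at 0 mM, the 10 steepest called slopes each way, up to 6 each way whose H2O2 arrays did not overlap those at 0 mM, members of the hormone, cell wall and touch lists, and the 3 on either side of the limit. Other members are named to illustrate a kind of product and were chosen after their values were seen. Symbols come from the platform annotation, which can be old, and all 91 members with 1 gene matched RefSeq genes of the TAIR10.1 assembly, which was used for names and for which genes are neighbours. No coordinates are printed, since the array's genome build was not stated. Of the members, 3 have probe sets marked _s_at and 1 marked _x_at, which can also read related genes. Same-numbered BL and solvent arrays at 0 mM correlated at 0.18, 0.11 and -0.07 in their deviations from the group means, so the numbers were not used as pairs.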

Additional observations from a re-analysis of the deposited data

How the results depend on the processing

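The member count of 183 moved with the rule: a gap of 0.2 gave 309 members and a gap of 0.5 gave 68. The replicate block, which asks for BL to be 0.3 or more below solvent within each same-numbered pair, gave 432, and leaving out 1 array at 0 mM at a time gave 251 to 1174. The same-numbered arrays were not shown to be pairs. With H2O2, each group has 1 array, so dose was the block. The BL effect and the slope difference called 0 probe sets under all alternatives run, 1 of which, a fit of the BL effect to all 16 arrays, also uses the arrays that chose the members and does not bear on the result under H2O2. Without single arrays, 22 to 37 members had a rising slope and 59 to 76 a falling one, and setting 25 to 100 mM against 1 and 5 mM gave 21 that rose. The shares over all probe sets in these refits are not given here. These counts therefore do not show whether the changes were particular to the members. Solvent arrays with H2O2 lay wholly above those at 0 mM for 19 to 64 members and wholly below for 22 to 36 without single arrays.

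Choosing the members again without 1 array at 0 mM was added after seeing the data. Without BL array 2 the number that rose was 156 and the number that fell 123, with medians of 0.065 for the BL effect, 0.13 for the slope and -0.13 for the slope difference. Without solvent array 2, 135 rose and 537 fell, with a median slope of -0.39. The number that rose was 42, 53, 59 and 60 without BL array 1, BL array 3, solvent array 1 and solvent array 3. The median slope was -0.092 and -0.11 without solvent arrays 1 and 3. These sets differ in size, and the sizes without BL array 1, BL array 3 and solvent array 1 are not given here. The counts that rose therefore cannot be compared as shares. The cause of the differences between the sets was not tested. Of 539 slopes of named genes under alternatives, 496 kept their direction and call status, 29 lost a call and 1 gained it (AT1G17230 without the 5 mM BL array, adjusted p = 0.0297 in limma). The other 13 changed sign, in 5 genes, and 0 of them were called in either fit. Without single arrays, the slope ranged from -0.070 to 0.38 for AT1G35350, from -0.29 to 0.10 for AT3G57630, from -0.27 to 0.072 for AT1G02660, from -0.59 to 0.095 for AT3G59480 and from -0.094 to 0.036 for AT3G52870. AT3G57630 was also at 0.018 over log2(dose). Of 25 named genes with a called slope, 8 lost it in some setting, 7 of them with no level filter.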
